A study of Schima superba and Cryptocarya concinna with 24 samples.

Results

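Photoreceptors, light signalling factors and circadian clock genes were followed in leaf transcriptomes of seedlings of 2 subtropical trees, Schima superba and Cryptocarya concinna. The genes were picked by name alone. A unigene, that is a transcript assembled without a genome, was a member when its best protein database hit was called a phytochrome, cryptochrome, phototropin, UVR8 or ultraviolet-B receptor, COP1, SPA1, HY5, gigantea, adagio, pseudo-response regulator (also APRR), LHY, early flowering or CONSTANS protein, partners of these included. The members numbered 154 of 117867 unigenes, S. superba giving 87 of 57053 and C. concinna 67 of 60814. No unigene was named LHY, a core clock gene of Arabidopsis, and each ultraviolet-B hit was a UVR8.

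Seedlings of both species came from a subtropical evergreen forest and were raised either in low light, under black nylon net that passed 30% of full sunlight, or in full sunlight. Mature and young leaves were taken in each light, which gave 4 groups per species (mature low light, mature full light, young low light and young full light) of 3 libraries each, 24 libraries in all. Genotype, seedling age, duration of shading and hour of harvest do not appear in the labels. Whether replicates are different plants is not in the labels, and the p-values cover the spread among these libraries alone, technical spread possibly included.

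Plants read light with several receptor families. Phytochromes absorb red and far-red light, cryptochromes and phototropins absorb blue light, and UVR8 absorbs UV-B. Phytochromes act through the PIF transcription factors, and phototropins steer chloroplasts, stomata and growth towards light. COP1 and the SPA proteins form a ubiquitin ligase complex that removes light-response factors such as HY5 in darkness and that active receptors hold back. The circadian clock, built in Arabidopsis from repressors such as the pseudo-response regulators, the evening complex with EARLY FLOWERING 3 and 4, and GIGANTEA with the blue-light F-box proteins of the ADAGIO family, times daily gene expression and, through CONSTANS, flowering.

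Values are FPKM, fragments scaled by unigene length and by the mapped total, so levels of different unigenes are compared per length. Summed FPKM per library were 769593 to 867163 in S. superba and 788453 to 977277 in C. concinna. Absolute depth is unknown. The steps between low values put library depths at 0.951 to 1.03 times that of young full light replicate 1 in S. superba. In C. concinna they were 0.914 to 1.04 times it. Unigenes at 1 FPKM or more in C. concinna numbered 31663 to 36148 in young low light and 40797 to 44030 in young full light libraries. Mature low and full light libraries there had 35667 to 42637 and 37829 to 43568. In S. superba young libraries had 42892 to 43905 and mature ones 32295 to 38815. The part of these numbers in the results was not tested. Log2 fold changes were taken on log2(FPKM + 1), which understates changes of low genes, and a change was called at an adjusted p under 0.05 in limma's moderated test, Benjamini-Hochberg adjusted over all unigenes tested in the species. All 67 C. concinna members and 84 of 87 S. superba members passed the filter of 1 FPKM in 3 libraries. The 3 that did not were a UVR8-like contig (CL419.Contig8, 0 to 6.41 FPKM), a gigantea contig (CL1709.Contig4, 0 to 11.2 FPKM) and a constans-like protein 3 (Unigene28801, 0 to 38.4 FPKM). Identifiers that start with CL are contigs of 1 assembly cluster: 44 S. superba members fell into 22 clusters and 35 C. concinna members into 18. Contigs of a cluster are alike and share reads, so the split between them is uncertain. Sums over all contigs of a cluster, contigs that are no members included, are given beside members whose call they changed.

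Leaf age moved the members far more than shade did, and the same held for all unigenes. Of 50970 unigenes tested in S. superba, 19730 were called for age in low light and 23426 in full light. For light, 2717 were called in young and 436 in mature leaves. In C. concinna 20044 and 15032 of 53005 were called for age, against 16 and 30 for light. The species differed in which families moved. In mature leaves of S. superba, cryptochrome 1, phototropin 2, SPA1-related and 3 of 5 COP1 unigenes were higher. These COP1 unigenes were contigs of cluster CL6700 and of a cluster shared with SPA1-RELATED 3. GIGANTEA, pseudo-response regulator 1, a regulator 7 contig (CL8110.Contig2), adagio protein 3 and phytochrome kinase substrates 2 and 4 were lower. The sum of another regulator 7 cluster (CL153) went the other way, with 1.38 in low light and 1.28, without a call, in full light. In mature leaves of C. concinna, GIGANTEA, EARLY FLOWERING 3, pseudo-response regulators 5 and 9, adagio proteins and most CONSTANS-like unigenes were higher together with cryptochrome 1, while HY5 was lower. Fewer of these passed in full light, with 1 of 3 GIGANTEA and 1 of 7 early flowering members, against 3 and 5 in low light. Both other scalings described below called all 3 GIGANTEA members and also the early flowering member Unigene8173 in full light. The test of whether the light effect differed by leaf age called 0 members of C. concinna. The full light call of regulator 9 was lost without any 1 of 9 libraries. The species were fitted apart and set side by side, so a difference between them was not tested.

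In S. superba, 16 of 84 members rose and 31 fell in mature against young leaves under low light, against 9.19% and 29.5% of all tested unigenes. Under full light 13 rose and 32 fell, against 9.67% and 36.3% of all unigenes. The members' median log2 fold change was -0.43 in low light and -0.54 in full light, and that of all unigenes -0.39 and -0.55. The medians were close. Of the members that rose, 10 did so in both lights, which was 62.5% of those in low light and 76.9% of those in full light. Of those that fell, 22 did so in both lights (71.0% and 68.8%), and none was called in opposite directions.

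The balance of rising and falling members in S. superba moved with the scaling of the libraries. Median-ratio rescaling gave 24 higher and 23 lower in low light and 28 higher and 22 lower in full light, and quantile normalization 25 and 24 in low light and 26 and 21 in full light. Of all 50511 unigenes tested after median-ratio rescaling, 7359 were higher and 9661 lower in low light, and 8455 and 11151 in full light. After quantile normalization the counts were 7911 and 9271 of 50970 in low light, and 9341 and 10642 in full light. The median of all unigenes moved with the scaling too, to -0.05 in low light and -0.07 in full light under median-ratio rescaling. The members' median was -0.03 in low light and -0.17 in full light under median-ratio rescaling, and -0.08 and 0.08 under quantile normalization. No called member turned its sign under either scaling; CONSTANS-LIKE 4 (Unigene3551), CONSTANS interacting protein 2b (Unigene31891) and an adagio protein 1 contig (CL4965.Contig3), negative without a call in full light, passed as higher there under median-ratio rescaling.

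In C. concinna, 29 of 67 members rose and 7 fell in mature leaves under low light (43.3% and 10.4%), against 20.7% and 17.1% of all unigenes, and the members' median was 1.03 against 0.27 for all unigenes. Under full light 17 rose and 12 fell (25.4% and 17.9%), against 8.19% and 20.2% of all unigenes, with medians of -0.05 and -0.17. Both other scalings gave 24 higher and 11 lower in full light, and the members' median there was then above 0, at 0.32 under median-ratio rescaling and 0.33 under quantile normalization. The calls of all unigenes moved as well. In full light 7268 were higher and 7743 lower of 52529 under median-ratio rescaling, and 7934 and 8129 of 53005 under quantile normalization. Under median-ratio rescaling the median of all unigenes was 0.14 in low light and 0.09 in full light. Of the members that rose, 16 did so in both lights (55.2% of those in low light, 94.1% of those in full light), and of those that fell 7 did so (100.0% and 58.3%). Counts by family and counts of markers below are to be read against the shares of all unigenes given above for each species and light. The plot of fold changes by family shows every tested member in each light.

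**Figure D1:**
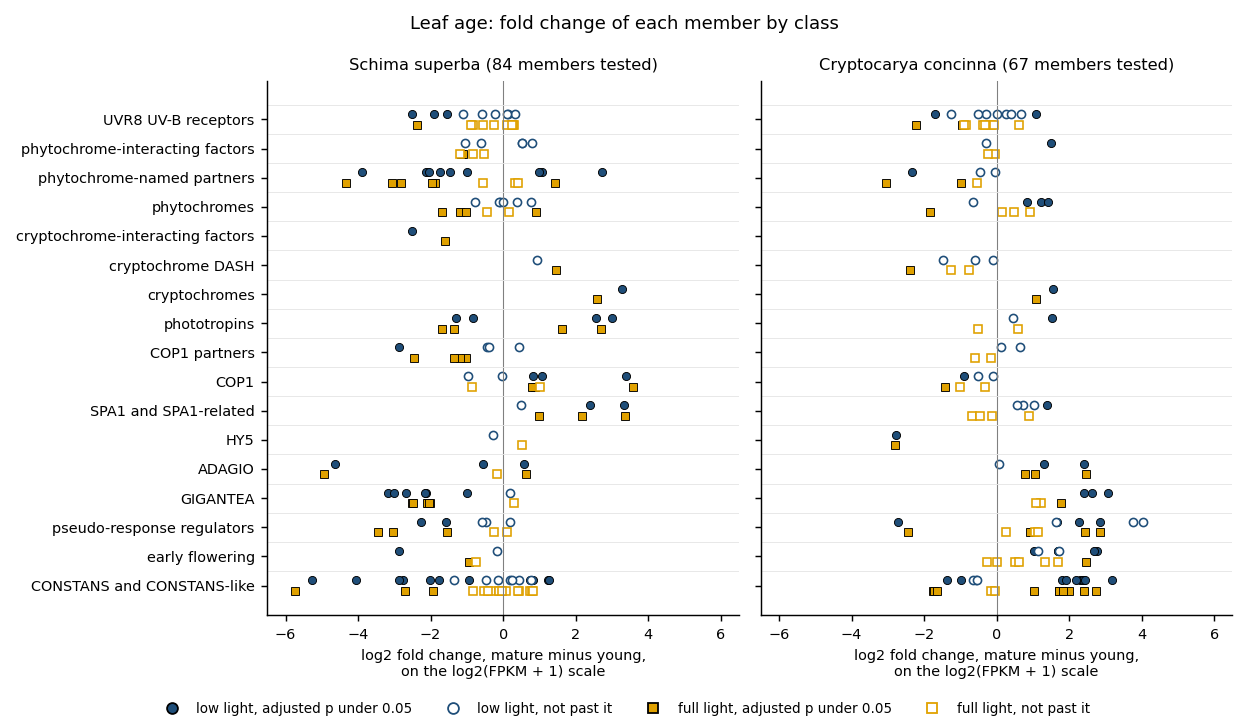
Log2 fold change of mature against young leaves (horizontal axis, on the log2(FPKM + 1) scale) for each tested member by family (vertical axis), 84 in S. superba and 67 in C. concinna, as circles for low light and squares for full light, filled where the adjusted p was under 0.05. GIGANTEA lies mostly to the left of 0 in S. superba and to the right of 0 in C. concinna.

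Markers of leaf tissues moved with age as well, beside every age result below, and their part in these results was not tested. In bulk leaf RNA, fewer cells of a type and less RNA per cell cannot be told apart. Summed mesophyll markers (Rubisco small subunits and chlorophyll a/b-binding proteins) stood at 62510 to 77920 FPKM in mature low light and 46200 to 68750 FPKM in mature full light leaves of S. superba, against 33200 to 47450 FPKM in young low light and 12740 to 19130 FPKM in young full light leaves. In C. concinna they stood at 40050 to 67840 and 38170 to 44830 FPKM, against 27520 to 41570 and 17220 to 24370 FPKM in the same order of lights, so they were high in every library, as the leaf label says. Single mesophyll markers of C. concinna went both ways in low light: 21 of 54 tested rose and 14 fell, with a median log2 fold change of -0.21. In full light 19 rose and 1 fell. In S. superba 9 of 37 tested rose and 0 fell in low light, and 17 rose and 3 fell in full light. Markers of dividing cells summed to 518 to 649 and 452 to 524 FPKM in mature low and full light leaves of S. superba, against 1259 to 1380 and 1491 to 1785 FPKM in young low and full light leaves, and 86 and 94 of 119 tested fell in low and full light. In C. concinna the sums were 472 to 509 and 344 to 487 FPKM, against 1463 to 1744 and 1293 to 1625 FPKM, and 66 and 76 of 118 fell. The sums of the dividing cell markers did not overlap between mature and young leaves in either species.

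Vascular markers summed to 265 to 436 and 243 to 383 FPKM in mature low and full light leaves of S. superba, against 1656 to 2976 and 1509 to 5099 FPKM in young leaves. Of 33 tested, 21 and 25 fell and 1 rose in each light. In C. concinna they were 151 to 554 and 101 to 153 FPKM, against 207 to 397 and 179.5 to 402 FPKM. Single markers there went both ways: of 27 tested, 6 rose and 6 fell in low light, and 2 rose and 6 fell in full light. Markers of trichomes, epidermis and guard cells were 306 to 387 and 229 to 367 FPKM, against 604 to 686 and 789.5 to 899 FPKM in S. superba, and 494 to 769 and 427 to 668 FPKM, against 759 to 1275 and 906 to 1811 FPKM in C. concinna. Of 34 tested in S. superba, 2 rose and 19 fell in low light, and 1 rose and 22 fell in full light. Of 44 tested in C. concinna, 4 rose and 22 fell in low light, and 0 rose and 30 fell in full light. Senescence markers, few in number, were 36.1 to 59.4 and 55.6 to 102 FPKM, against 57.6 to 81.8 and 80.0 to 103 FPKM in S. superba, and 620.4 to 660.3 and 457 to 801 FPKM, against 383 to 1694 and 258 to 394 FPKM in C. concinna. Of the dividing cell markers, 6 of 130 were listed at 0 in all mature S. superba libraries and 1 in all young ones, and 13 of 132 and 1 in C. concinna; of the other lists, at most 3 markers were listed at 0 in all libraries of a leaf age.

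Among the photoreceptors, the blue-light receptors cryptochrome 1 and phototropin 2 were higher and phototropin 1 was lower in mature leaves of S. superba in both lights. Cryptochrome 1 (CL852.Contig3) had 131, 98.9 and 113 FPKM in mature low light leaves and 70.1, 70.9 and 114 FPKM in mature full light leaves, against 12.7, 10.6 and 9.25 FPKM in young low light leaves and 11.2, 16 and 11.8 FPKM in young full light leaves. Each mature library stood far above each young one, and the lights overlapped within an age. The log2 fold change of mature against young leaves was 3.28 ± 0.23 (SE, adjusted p = 1.56e-06) in low light and 2.60 ± 0.23 (SE, adjusted p = 4.49e-06) in full light. Phototropin 2 (Unigene6770) behaved alike, with 173, 145 and 127 FPKM in mature low light leaves and 73.7, 174 and 141 FPKM in mature full light leaves, against 22.8, 16 and 14.4 FPKM in young low light leaves and 21.6, 15.5 and 16.9 FPKM in young full light leaves. All mature libraries again lay above all young ones, with mature full light replicate 1 at less than the other mature libraries. Its change was 3.01 ± 0.30 (SE, adjusted p = 1.92e-05) in low light and 2.71 ± 0.30 (SE, adjusted p = 2.4e-05) in full light. A shorter-named phototropin-2 hit (Unigene27944) was at 0 FPKM in 5 of 6 young libraries and at 1.09 to 5.35 FPKM in mature ones, and also rose in both lights.

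The pair of phototropin 1 contigs of S. superba, given here because the receptor pair moved in opposite directions and chosen after their values were seen, were lower in mature leaves. CL4896.Contig3 had 34.9, 21.3 and 17.8 FPKM in mature low light leaves and 17.3, 17.1 and 17.1 FPKM in mature full light leaves, against 38.2, 42.9 and 48.9 FPKM in young low light leaves and 42.7, 52.3 and 41.5 FPKM in young full light leaves. Mature low light replicate 1 stood closest to the young libraries, and no mature library reached them. The change was -0.84 ± 0.22 (SE, adjusted p = 0.0118) in low light and -1.35 ± 0.22 (SE, adjusted p = 0.000467) in full light; CL4896.Contig2 changed by -1.29 and -1.68. Under both other scalings the low light calls of both contigs and the full light call of CL4896.Contig2 were lost (adjusted p = 0.0572 to 0.231), and in low light the call of CL4896.Contig3 was lost without replicate 3 of young low light (adjusted p = 0.0502) and that of CL4896.Contig2 without replicate 1, 2 or 3 of young low light or replicate 2 or 3 of mature low light (adjusted p = 0.0543 to 0.0986). The sum of their cluster changed by -0.97 ± 0.26 (SE, adjusted p = 0.00948) in low light and -1.43 ± 0.26 (SE, adjusted p = 0.000642) in full light.

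In C. concinna the cryptochrome 1 unigene (CL25.Contig2, named cryptochrome 1.2) was also higher in mature leaves. It had 70.8, 72.8 and 95.6 FPKM in mature low light leaves and 65.9, 71 and 80.2 FPKM in mature full light leaves, against 30.6, 19.3 and 30.1 FPKM in young low light leaves and 35.7, 29.1 and 36.1 FPKM in young full light leaves. The lowest mature library was above the highest young one. The change was 1.56 ± 0.23 (SE, adjusted p = 0.000296) in low light and 1.09 ± 0.23 (SE, adjusted p = 0.00391) in full light, and the sum of the cluster, with 2 contigs of other names, kept the call in low light (1.19, adjusted p = 0.00573) but not in full light (0.49, adjusted p = 0.211). Phototropin 2 (CL1109.Contig1) had 49.8, 38.1 and 64.6 FPKM in mature low light leaves and 41, 90.6 and 78.3 FPKM in mature full light leaves, against 19.8, 9.45 and 24.4 FPKM in young low light leaves and 67.7, 31.4 and 40.4 FPKM in young full light leaves. Young low light leaves stood lowest, and young full light leaves reached into the mature range. It rose in low light (1.52 ± 0.40 SE, adjusted p = 0.0112) and in full light gave 0.58 ± 0.40 (SE, adjusted p = 0.31). No unigene of C. concinna was named phototropin 1.

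**Figure D2:**
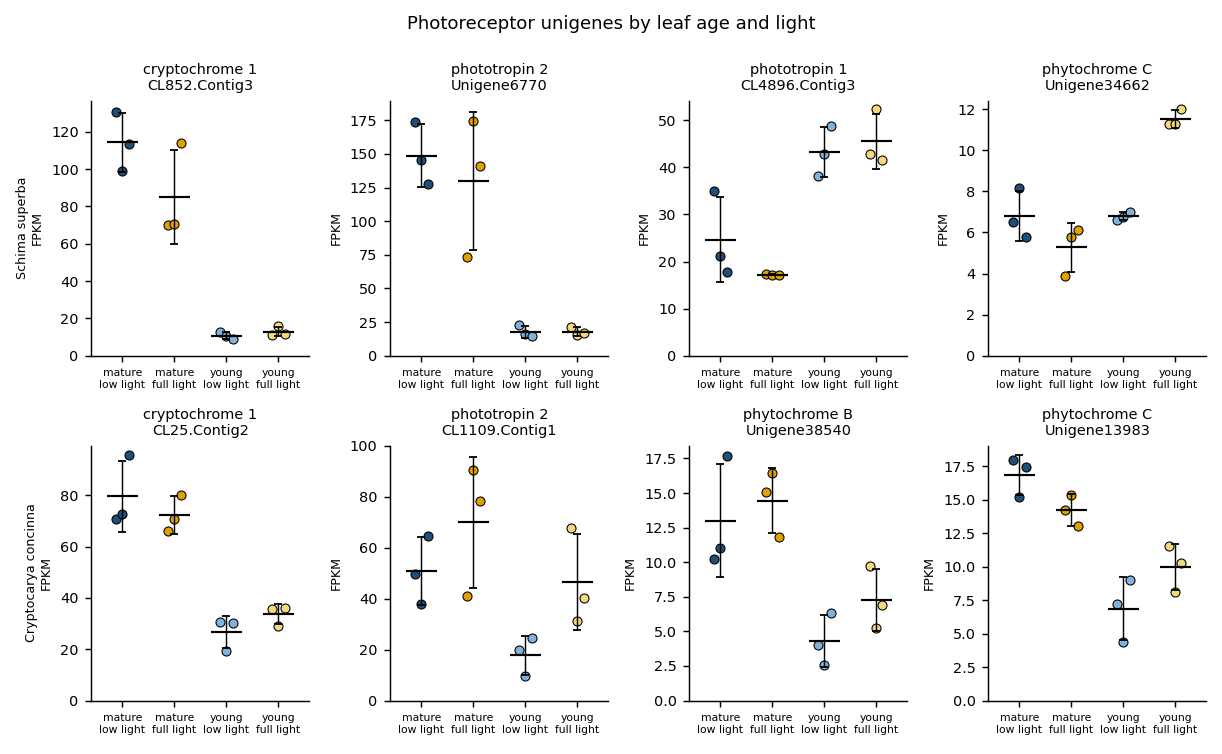
FPKM of receptor unigenes in each library of S. superba (cryptochrome 1, phototropin 2, phototropin 1, phytochrome C) and C. concinna (cryptochrome 1, phototropin 2, phytochrome B, phytochrome C), by group, with 3 points per group, the mean as a line and the SD as a whisker. Cryptochrome 1 of S. superba sits between 70.1 and 131 FPKM in mature leaves, above every young library.

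Calls among the phytochromes depended on the scaling and on the contig. In S. superba the phytochrome B unigene with the highest level (Unigene3814) had 16.7, 12.9 and 10.9 FPKM in mature low light leaves and 8.04, 19.8 and 17.9 FPKM in mature full light leaves, against 8.81, 8.11 and 5.77 FPKM in young low light leaves and 7.23, 7.4 and 6.85 FPKM in young full light leaves. Within each light the mature libraries lay above the young ones. Its change was 0.76 ± 0.30 (SE, adjusted p = 0.0688) in low light, where it passed under both other scalings (1.18 and 1.17, adjusted p = 0.00416 and 0.00441), and 0.91 ± 0.30 (SE, adjusted p = 0.0292) in full light, a call that was lost without replicate 1, 2 or 3 of young full light or replicate 2 or 3 of mature full light (adjusted p = 0.0598 to 0.11). Phytochrome C (Unigene34662) passed in full light, with -1.01 ± 0.20 (SE, adjusted p = 0.00145), and gave -0.01 in low light, and 2 partial phytochrome A contigs (CL1287.Contig3 and CL1287.Contig4) gave -1.19 and -1.68 in full light; all 3 calls were lost under both other scalings, and those of the phytochrome A contigs also without replicate 1 or 2 of young full light, replicate 1, 2 or 3 of mature full light, replicate 2 or 3 of young low light or replicate 2 of mature low light (adjusted p = 0.055 to 0.157) and without replicate 1 or 2 of young full light or replicate 1 or 3 of mature full light (adjusted p = 0.0953 to 0.121). The sum over the 4 contigs of their cluster, 2 of them members, changed by -0.93 ± 0.31 (SE, adjusted p = 0.0321) in low light and -2.47 ± 0.31 (SE, adjusted p = 5.25e-05) in full light. In C. concinna, 3 of 4 phytochromes rose in low light and none in full light, where 1 fell. Phytochrome B (Unigene38540) had 10.2, 11.1 and 17.7 FPKM in mature low light leaves and 15.1, 16.4 and 11.8 FPKM in mature full light leaves, against 4.02, 2.6 and 6.3 FPKM in young low light leaves and 9.69, 5.24 and 6.93 FPKM in young full light leaves. Every mature library exceeded every young one. It gave 1.42 ± 0.33 (SE, adjusted p = 0.0055) in low light and 0.92 ± 0.33 (SE, adjusted p = 0.0538) in full light, and in full light it passed under both other scalings. Phytochrome C (Unigene13983) gave 1.23 ± 0.27 (SE, adjusted p = 0.00355) in low light and 0.48 ± 0.27 (SE, adjusted p = 0.195) in full light and passed in full light under both other scalings (0.82 and 0.98, adjusted p = 0.0142 and 0.0051). The third that rose in low light was a phytochrome A contig, CL5177.Contig2, with 0.84 ± 0.29 (SE, adjusted p = 0.0382) in low light and 0.14 ± 0.29 (SE, adjusted p = 0.756) in full light, the first lost without replicate 3 of young full light, replicate 2 of mature full light, replicate 1 or 2 of young low light or replicate 1 or 3 of mature low light (adjusted p = 0.0523 to 0.141). The other phytochrome A contig (CL5177.Contig1) gave -0.66 ± 0.46 (SE, adjusted p = 0.273) in low light and -1.84 ± 0.46 (SE, adjusted p = 0.0103) in full light. The sum of both had no call, with 0.40 ± 0.25 (SE, adjusted p = 0.214) in low light and -0.46 ± 0.25 (SE, adjusted p = 0.185) in full light.

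UVR8 unigenes were many, and most did not pass. Of 10 in S. superba and 9 in C. concinna, 8 in each species also carried a database term for HERC4, an animal ubiquitin ligase with repeats of the same kind, and which of them encode the UV-B receptor itself was not tested. In S. superba 3 of 9 tested fell in low light and 1 in full light. Of all unigenes of the species, 29.5% fell in low light and 36.3% in full light. Unigene23973 fell in both: it had 11.5, 10.4 and 15.2 FPKM in mature low light leaves and 8.83, 8.23 and 9.91 FPKM in mature full light leaves, against 61.7, 82.9 and 83.1 FPKM in young low light leaves and 45.3, 52.2 and 55.7 FPKM in young full light leaves. Young leaves were several-fold above mature ones without overlap, and within each age low light libraries were above full light ones. Its change with age was -2.53 ± 0.18 (SE, adjusted p = 2.44e-06) in low light and -2.38 ± 0.18 (SE, adjusted p = 2.07e-06) in full light. The others that fell in low light were both contigs of cluster CL470: CL470.Contig2 gave -1.91 ± 0.25 (SE, adjusted p = 0.00016) in low light and -0.26 ± 0.25 (SE, adjusted p = 0.446) in full light, and CL470.Contig1 gave -1.55 ± 0.44 (SE, adjusted p = 0.0169) in low light and -0.83 ± 0.44 (SE, adjusted p = 0.149) in full light, its low light call lost under both other scalings (-1.18 and -1.11, adjusted p = 0.0649 and 0.074) and without replicate 2 of young low light or replicate 2 of mature low light (adjusted p = 0.0596 to 0.0619). The next most abundant unigene, CL1972.Contig1, had 31.4, 34.5 and 36.9 FPKM in mature low light leaves and 21.9, 27.9 and 30.9 FPKM in mature full light leaves, against 34.1, 29.1 and 30.6 FPKM in young low light leaves and 25.3, 22.8 and 26.6 FPKM in young full light leaves. Its groups overlapped between ages, and it gave 0.13 ± 0.16 (SE, adjusted p = 0.574) in low light and 0.10 ± 0.16 (SE, adjusted p = 0.657) in full light. In full light it passed under both other scalings (0.75 and 0.55, adjusted p = 0.00127 and 0.0106), and in low light under median-ratio rescaling (0.58, adjusted p = 0.00778). In C. concinna 1 of 9 rose and 1 fell in low light, and 2 fell in full light. Of all unigenes there, 20.7% rose and 17.1% fell in low light, and 20.2% fell in full light. Unigene23182 rose by 1.09 ± 0.24 (SE, adjusted p = 0.00428) in low light and gave 0.61 ± 0.24 (SE, adjusted p = 0.0797) in full light, where it passed under both other scalings (0.97 and 1.13, adjusted p = 0.0028 and 0.00225). CL7535.Contig1 had 4.96, 1.65 and 1.91 FPKM in mature low light leaves and 9.13, 0.93 and 2.37 FPKM in mature full light leaves, against 11, 11 and 9.82 FPKM in young low light leaves and 18.4, 19.1 and 16.3 FPKM in young full light leaves. Its mature libraries were all below its young ones. It changed by -1.69 ± 0.50 (SE, adjusted p = 0.0192) in low light and -2.22 ± 0.50 (SE, adjusted p = 0.00558) in full light; the low light call was lost without replicate 1 or 2 of young low light or replicate 2 or 3 of mature low light (adjusted p = 0.0507 to 0.0665). Unigene40908 gave 0.41 ± 0.31 (SE, adjusted p = 0.315) in low light and -0.97 ± 0.31 (SE, adjusted p = 0.0337) in full light, a call lost under both other scalings and without replicate 1 or 2 of young full light or replicate 2 or 3 of mature full light (adjusted p = 0.0869 to 0.098). The other UVR8 members with a mean of at least 5 FPKM passed in neither light, Unigene4437 of C. concinna among them. CL2694.Contig1 and CL419.Contig7 of S. superba gave -0.22 and 0.11 in low light and 0.28 and 0.26 in full light. CL3890.Contig1, CL687.Contig1 and Unigene18104 of C. concinna gave 0.00, 0.27 and -0.51 in low light and -0.15, -0.39 and -0.32 in full light. Under median-ratio rescaling 4 S. superba UVR8 unigenes passed as higher in full light and 1 as lower; CL2694.Contig1 and CL419.Contig7 were among the 4 and passed as higher under quantile normalization too. Sums gave lower calls that no member contig had: the 2 contigs of CL6251 gave -0.96 ± 0.26 (SE, adjusted p = 0.0105) in low light and -0.88 ± 0.26 (SE, adjusted p = 0.014) in full light, and the 8 contigs of CL419, 2 of them members, gave -0.62 ± 0.21 (SE, adjusted p = 0.0338) in low light and 0.18 ± 0.21 (SE, adjusted p = 0.518) in full light.

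Cryptochrome DASH proteins are relatives of cryptochromes that repair DNA in Arabidopsis chloroplasts and mitochondria. In S. superba the single unigene (Unigene35205) had 27.7, 24.6 and 7.32 FPKM in mature low light leaves and 12.4, 35.3 and 11.4 FPKM in mature full light leaves, against 12, 6.77 and 7.56 FPKM in young low light leaves and 5.45, 5.13 and 6.29 FPKM in young full light leaves. Mature leaves varied widely between replicates, and in low light mature replicate 3 lay among the young libraries. It gave 0.94 ± 0.49 (SE, adjusted p = 0.158) in low light and 1.46 ± 0.49 (SE, adjusted p = 0.0306) in full light, and the full light call was lost without replicate 1, 2 or 3 of young full light or replicate 2 of mature full light (adjusted p = 0.056 to 0.12). In low light it passed under both other scalings (1.37 and 1.33, adjusted p = 0.0482 and 0.047). In C. concinna CL2607.Contig5 went the other way, with 7.28, 0.66 and 0.96 FPKM in mature low light leaves and 8.77, 1.45 and 0.5 FPKM in mature full light leaves, against 14.9, 2.5 and 9.46 FPKM in young low light leaves and 12.6, 22.9 and 14.6 FPKM in young full light leaves. Only the full light groups did not overlap. It gave -1.48 ± 0.77 (SE, adjusted p = 0.145) in low light and -2.38 ± 0.77 (SE, adjusted p = 0.0352) in full light, lost without replicate 1, 2 or 3 of young full light or replicate 2 or 3 of mature full light (adjusted p = 0.056 to 0.126).

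Transcripts named for the ligase that represses light responses were mostly higher in mature leaves of S. superba. The protein complex was not measured. All 3 SPA1-related unigenes rose in full light and 2 in low light, and 3 of 5 COP1 unigenes rose in each light. The COP1 unigenes that rose were contigs of cluster CL6700 and a contig from a cluster shared with SPA1-RELATED 3, so they are not all separate genes. No SPA1-related or COP1 unigene was called lower. Without a call, 2 COP1 unigenes had negative changes in low light and 1 in full light, down to -0.96 and -0.86. SPA1-related 3 (Unigene39977) had 27.5, 35.6 and 20.5 FPKM in mature low light leaves and 19.4, 31.4 and 27.9 FPKM in mature full light leaves, against 3.11, 1.37 and 1.28 FPKM in young low light leaves and 2.12, 1.25 and 1.47 FPKM in young full light leaves. Even the lowest mature library was several-fold above the highest young one. The change was 3.33 ± 0.30 (SE, adjusted p = 9.3e-06) in low light and 3.37 ± 0.30 (SE, adjusted p = 4.91e-06) in full light. A second SPA1-RELATED 3 unigene (CL5496.Contig2) had 44.2, 46.7 and 39 FPKM in mature low light leaves and 23.8, 52.5 and 47.9 FPKM in mature full light leaves, against 8.88, 6.64 and 6.9 FPKM in young low light leaves and 7.2, 7.33 and 9.53 FPKM in young full light leaves. Here too the ages did not overlap, and the change was 2.39 ± 0.27 (SE, adjusted p = 4.62e-05) in low light and 2.17 ± 0.27 (SE, adjusted p = 5.66e-05) in full light. SPA1-RELATED 2 (Unigene10535) gave 0.50 ± 0.23 (SE, adjusted p = 0.105) in low light and 1.00 ± 0.23 (SE, adjusted p = 0.00363) in full light and passed in low light under both other scalings.

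The COP1-named unigene with the largest change, CL5496.Contig1, lies in the cluster of SPA1-RELATED 3, and which of the 2 it encodes was not tested. It had 35.8, 44.2 and 33.6 FPKM in mature low light leaves and 24.1, 38.1 and 33.5 FPKM in mature full light leaves, against 3.82, 2.62 and 1.86 FPKM in young low light leaves and 2.29, 1.08 and 1.98 FPKM in young full light leaves. Mature and young libraries were far apart. Its change was 3.39 ± 0.26 (SE, adjusted p = 3.49e-06) in low light and 3.56 ± 0.26 (SE, adjusted p = 1.44e-06) in full light, and the cluster sum changed by 3.32 and 3.11. The main contig of the other COP1 cluster, CL6700.Contig1, had 25.8, 25.7 and 25.7 FPKM in mature low light leaves and 14.9, 31.4 and 24.8 FPKM in mature full light leaves, against 12.7, 10.6 and 11.8 FPKM in young low light leaves and 13.8, 10.2 and 11.7 FPKM in young full light leaves. Mature full light replicate 1 was nearest the young range. It changed by 1.08 ± 0.24 (SE, adjusted p = 0.00395) in low light and 0.88 ± 0.24 (SE, adjusted p = 0.00953) in full light, and the sum of the cluster by 0.91 ± 0.25 (SE, adjusted p = 0.0121) and 0.91 ± 0.25 (SE, adjusted p = 0.00963). CL6700.Contig3 gave 0.83 and 0.80, calls lost in low light without replicate 2 or 3 of young low light or replicate 1 or 2 of mature low light (adjusted p = 0.0768 to 0.117) and in full light without replicate 1, 2 or 3 of young full light or replicate 2 or 3 of mature full light (adjusted p = 0.0575 to 0.13). In C. concinna no COP1 unigene rose. CL2770.Contig1 had 14.1, 8.92 and 11.5 FPKM in mature low light leaves and 13.5, 9.71 and 8.37 FPKM in mature full light leaves, against 23.7, 16.9 and 26.8 FPKM in young low light leaves and 29.7, 31 and 28.4 FPKM in young full light leaves. Young leaves exceeded mature ones throughout. It changed by -0.90 ± 0.26 (SE, adjusted p = 0.0168) in low light and -1.44 ± 0.26 (SE, adjusted p = 0.00139) in full light, and in low light the call was lost without replicate 1 or 3 of young low light (adjusted p = 0.052 to 0.0587). Unigene5394, a second COP1 there, gave -0.50 ± 0.42 (SE, adjusted p = 0.362) in low light and -1.02 ± 0.42 (SE, adjusted p = 0.0879) in full light. Of 4 SPA unigenes of the species, 1 rose in low light (Unigene4373, 1.40) and none passed in full light, where Unigene4373 gave 0.88 and passed under both other scalings (1.16 and 1.24, adjusted p = 0.0106 and 0.00585); SPA1-RELATED 4 (Unigene1031) gave 1.04 ± 0.46 (SE, adjusted p = 0.0939) and -0.45 ± 0.46 (SE, adjusted p = 0.501).

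HY5, the bZIP factor that turns on light-responsive genes and that COP1 marks for breakdown, was lower in mature leaves of C. concinna and did not pass in S. superba. In C. concinna (Unigene17288) it had 4.75, 3.23 and 0.79 FPKM in mature low light leaves and 11.2, 7.38 and 4.31 FPKM in mature full light leaves, against 22.3, 14.4 and 37 FPKM in young low light leaves and 64.4, 54.3 and 50.3 FPKM in young full light leaves. Young full light leaves were highest, young low light leaves came next, and every mature library lay below both. It changed by -2.76 ± 0.45 (SE, adjusted p = 0.000602) in low light and -2.81 ± 0.45 (SE, adjusted p = 0.000664) in full light. In S. superba (Unigene32401) it had 81.2, 38.2 and 64.2 FPKM in mature low light leaves and 63.5, 144 and 94.7 FPKM in mature full light leaves, against 92.8, 52.8 and 73.4 FPKM in young low light leaves and 84.9, 43.1 and 79.3 FPKM in young full light leaves. All groups overlapped, and mature full light replicate 2 was highest. The changes were -0.28 ± 0.38 (SE, adjusted p = 0.6) in low light and 0.52 ± 0.38 (SE, adjusted p = 0.293) in full light, the second of which passed under median-ratio rescaling (1.19, adjusted p = 0.0137). COP1-interacting proteins of S. superba were lower: all 4 fell in full light and 1 in low light, but 2 and 3 of the 4 full light calls were lost under median-ratio rescaling and quantile normalization. Unigene14743, which like COP1-interacting protein 7 carries a formin term, had 0.55, 0.55 and 0.28 FPKM in mature low light leaves and 0.57, 0.59 and 4.6 FPKM in mature full light leaves, against 9.9, 8.42 and 11 FPKM in young low light leaves and 10.9, 12.2 and 14.2 FPKM in young full light leaves. It was near 0 in mature leaves apart from mature full light replicate 3. It changed by -2.88 ± 0.42 (SE, adjusted p = 0.000285) in low light and -2.47 ± 0.42 (SE, adjusted p = 0.000562) in full light. COP1-interacting protein 7 (CL2232.Contig1) gave -0.46 ± 0.32 (SE, adjusted p = 0.294) in low light and -1.01 ± 0.32 (SE, adjusted p = 0.0236) in full light, the second lost under both other scalings (-0.41 and -0.37, adjusted p = 0.324 and 0.363) and without replicate 1 or 2 of young full light or replicate 1 or 2 of mature full light (adjusted p = 0.0643 to 0.0869). Neither COP1 partner of C. concinna passed, and its COP1-interacting protein 7 (Unigene17933) gave 0.65 and -0.59.

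Phytochrome kinase substrates, plasma membrane proteins that pass phytochrome and phototropin signals to phototropism and leaf flattening in Arabidopsis, were mostly transcripts of young leaves. In S. superba, substrate 2 (Unigene6571) had 0.25, 0.49 and 0.14 FPKM in mature low light leaves and 0, 0.19 and 0.15 FPKM in mature full light leaves, against 15.9, 21.2 and 17.6 FPKM in young low light leaves and 23.7, 19.9 and 20.4 FPKM in young full light leaves. It was close to 0 in all mature libraries. The change was -3.89 ± 0.21 (SE, adjusted p = 3.39e-07) in low light and -4.33 ± 0.21 (SE, adjusted p = 1.14e-07) in full light. Substrate 4 (Unigene24920) had 0.17, 0.22 and 0.11 FPKM in mature low light leaves and 0, 0.06 and 0.12 FPKM in mature full light leaves, against 4.32, 3.34 and 4.58 FPKM in young low light leaves and 10.6, 9.23 and 4.75 FPKM in young full light leaves. Its mature libraries were also near 0, and it changed by -2.12 ± 0.29 (SE, adjusted p = 0.000183) in low light and -3.06 ± 0.29 (SE, adjusted p = 7.84e-06) in full light. Substrate 1 (Unigene3125) went the other way, with 11.1, 15 and 5.55 FPKM in mature low light leaves and 4.73, 2.44 and 2.71 FPKM in mature full light leaves, against 0.71, 0.74 and 0.5 FPKM in young low light leaves and 0.51, 0.38 and 0.76 FPKM in young full light leaves. It was under 1 FPKM in all young libraries and highest in mature low light leaves. It changed by 2.72 ± 0.34 (SE, adjusted p = 0.000104) in low light and 1.44 ± 0.34 (SE, adjusted p = 0.00482) in full light. In C. concinna a kinase substrate-related protein (Unigene38275) had 7.73, 7.13 and 3.41 FPKM in mature low light leaves and 3.6, 4.58 and 7.25 FPKM in mature full light leaves, against 32.3, 25.6 and 43.4 FPKM in young low light leaves and 70.8, 41.5 and 38.9 FPKM in young full light leaves. All young libraries were above all mature ones, and the change was -2.32 ± 0.35 (SE, adjusted p = 0.000348) in low light and -3.06 ± 0.35 (SE, adjusted p = 6.31e-05) in full light. A phytochrome-associated protein phosphatase (Unigene26734) gave -0.46 ± 0.20 (SE, adjusted p = 0.0825) in low light and -0.98 ± 0.20 (SE, adjusted p = 0.00281) in full light and passed in low light under median-ratio rescaling (-0.67, adjusted p = 0.0179). The cluster sum of a phytochrome and flowering time regulatory protein (CL2985, 2 contigs, 1 of them a member and without a call) gave -0.69 ± 0.21 (SE, adjusted p = 0.0204) in low light and -0.90 ± 0.21 (SE, adjusted p = 0.00617) in full light.

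Phytochrome-associated proteins 1 and 2 of S. superba carry a database term for auxin-responsive IAA proteins, repressors of auxin signalling, and both fell. Protein 2 (Unigene14016) had 26.9, 25.3 and 30.1 FPKM in mature low light leaves and 31.6, 23.9 and 23.2 FPKM in mature full light leaves, against 54.5, 49.2 and 62.4 FPKM in young low light leaves and 117, 74.6 and 110.5 FPKM in young full light leaves. Young full light leaves were highest. It changed by -0.98 ± 0.20 (SE, adjusted p = 0.00269) in low light and -1.89 ± 0.20 (SE, adjusted p = 1.96e-05) in full light, and the low light call was lost under median-ratio rescaling (adjusted p = 0.104). Protein 1 (Unigene5059) changed by -2.04 ± 0.28 (SE, adjusted p = 0.000219) in low light and -2.83 ± 0.28 (SE, adjusted p = 1.27e-05) in full light. A phytochrome A-associated F-box protein (Unigene15095), which in Arabidopsis (EID1) damps far-red signalling, rose in low light by 1.06 ± 0.23 (SE, adjusted p = 0.00389) and gave 0.33 ± 0.23 (SE, adjusted p = 0.271) in full light, where it passed under both other scalings (0.96 and 0.89, adjusted p = 0.00434 and 0.00806). The cryptochrome-interacting bHLH hit of S. superba (Unigene21658), which also carries a histone H3 term, changed by -2.50 ± 0.35 (SE, adjusted p = 0.000242) in low light and -1.60 ± 0.35 (SE, adjusted p = 0.00326) in full light. Of 5 PIF unigenes in S. superba none passed in low light, where the other scalings called 2 and 3 higher, and 2 fell in full light, with no call under either other scaling. The highest (CL3987.Contig5) had 16.8, 8.23 and 11.4 FPKM in mature low light leaves and 9.62, 11.1 and 14.8 FPKM in mature full light leaves, against 13.1, 3.02 and 6 FPKM in young low light leaves and 15.2, 19.5 and 17.8 FPKM in young full light leaves. Its groups overlapped between ages except in full light. It gave 0.79 ± 0.40 (SE, adjusted p = 0.141) in low light and -0.54 ± 0.40 (SE, adjusted p = 0.299) in full light and passed as higher in low light under both other scalings (adjusted p = 0.0247 and 0.0272). The sum of its 5-contig cluster gave 0.30 ± 0.21 (SE, adjusted p = 0.267) in low light and -0.90 ± 0.21 (SE, adjusted p = 0.00362) in full light. In C. concinna a PIF3-like contig (CL6686.Contig2) rose in low light (1.49 ± 0.43 SE, adjusted p = 0.0175) and gave -0.23 in full light; the call was lost in the sum of its cluster (0.63, adjusted p = 0.0692) and without replicate 2 of young low light or replicate 1 or 3 of mature low light (adjusted p = 0.0556 to 0.0705).

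Several clock genes ran in opposite directions in the species. GIGANTEA, a clock protein that stabilises the ADAGIO-type F-box protein ZEITLUPE and promotes CONSTANS expression in Arabidopsis, was lower in mature leaves of S. superba and higher in mature leaves of C. concinna. The hour at which leaves were frozen was not given in the sources used here. These genes cycle daily in Arabidopsis, so a change of level and a difference in harvest time or phase cannot be told apart. In S. superba 6 of 7 tested GIGANTEA unigenes fell in each light. The ones that did not pass were CL1709.Contig1 in low light (0.18) and, in full light, Unigene37869 (0.30), which stayed under 2 FPKM in all libraries and whose low light call was lost under quantile normalization (-0.62, adjusted p = 0.192) and without replicate 1 or 2 of mature low light (adjusted p = 0.0965 to 0.101). CL2783.Contig2 had 20.1, 23.4 and 27.4 FPKM in mature low light leaves and 22, 35.7 and 36.2 FPKM in mature full light leaves, against 122, 112 and 95.1 FPKM in young low light leaves and 129.9, 139 and 119.5 FPKM in young full light leaves. Every young library was well above every mature one. It changed by -2.17 ± 0.21 (SE, adjusted p = 1.61e-05) in low light and -2.04 ± 0.21 (SE, adjusted p = 1.4e-05) in full light, and its cluster mate CL2783.Contig1 by -2.12 and -2.09. The contigs of the other cluster, CL1709, summed to 29.4, 39.7 and 38.4 FPKM in mature low light leaves and 41.5, 63.9 and 52.4 FPKM in mature full light leaves, against 269, 299 and 254 FPKM in young low light leaves and 254, 309 and 228 FPKM in young full light leaves. Young leaves were again above mature leaves in both lights. The sum changed by -2.91 ± 0.20 (SE, adjusted p = 9.05e-07) in low light and -2.31 ± 0.20 (SE, adjusted p = 2.73e-06) in full light, and its contig CL1709.Contig5 by -2.69 and -2.51.

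In C. concinna all 3 GIGANTEA unigenes rose in low light and 1 in full light, where both other scalings called all 3. CL7465.Contig1 had 172, 83.9 and 144 FPKM in mature low light leaves and 126, 94.3 and 80.6 FPKM in mature full light leaves, against 17.5, 6.85 and 24.3 FPKM in young low light leaves and 21.5, 28.6 and 37.1 FPKM in young full light leaves. Mature leaves exceeded young leaves in every library, and young low light replicate 2 was lowest. It changed by 3.06 ± 0.41 (SE, adjusted p = 0.000142) in low light and 1.76 ± 0.41 (SE, adjusted p = 0.00657) in full light. Unigene9579 had 134, 45.1 and 84.8 FPKM in mature low light leaves and 73, 49.9 and 48.7 FPKM in mature full light leaves, against 19.8, 7.64 and 19.2 FPKM in young low light leaves and 21.7, 25 and 32 FPKM in young full light leaves. It showed the same order of ages. It gave 2.40 ± 0.41 (SE, adjusted p = 0.000796) in low light and 1.09 ± 0.41 (SE, adjusted p = 0.065) in full light. The third unigene, CL7465.Contig2, gave 2.62 ± 0.48 (SE, adjusted p = 0.00131) in low light and 1.22 ± 0.48 (SE, adjusted p = 0.077) in full light. The sum of cluster CL7465 rose by 2.98 ± 0.41 (SE, adjusted p = 0.000115) in low light and by 1.57 ± 0.41 (SE, adjusted p = 0.0101) in full light.

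Adagio proteins are blue-light F-box proteins that mark clock and flowering repressors for breakdown. Adagio protein 3, known as FKF1 in Arabidopsis, was lower in mature leaves of S. superba (Unigene38905), with 0.92, 1.4 and 3.44 FPKM in mature low light leaves and 1.11, 1.81 and 1.64 FPKM in mature full light leaves, against 71.5, 68.6 and 62 FPKM in young low light leaves and 79.9, 73.7 and 74.2 FPKM in young full light leaves. Mature leaves retained a few FPKM at most. The change was -4.64 ± 0.27 (SE, adjusted p = 5e-07) in low light and -4.94 ± 0.27 (SE, adjusted p = 1.93e-07) in full light. In C. concinna the adagio protein 3-like contig (CL2876.Contig2) was higher in mature leaves, with 7.35, 3.33 and 10.2 FPKM in mature low light leaves and 9.07, 7.79 and 12.9 FPKM in mature full light leaves, against 1.08, 0 and 0.3 FPKM in young low light leaves and 0.68, 1.41 and 0.81 FPKM in young full light leaves. This contig was at or near 0 in young leaves. It changed by 2.41 ± 0.41 (SE, adjusted p = 0.000814) in low light and 2.46 ± 0.41 (SE, adjusted p = 0.000849) in full light. The sum of its cluster, with a contig that is no member, was 4.9 to 12.37 FPKM in young and 55.93 to 70.6 FPKM in mature libraries. That sum changed by 2.72 ± 0.30 (SE, adjusted p = 2.13e-05) in low light and 2.90 ± 0.30 (SE, adjusted p = 1.7e-05) in full light. Adagio protein 1, ZEITLUPE in Arabidopsis, rose in C. concinna (Unigene28377) by 1.29 ± 0.18 (SE, adjusted p = 0.000221) in low light and 0.79 ± 0.18 (SE, adjusted p = 0.00662) in full light. Of the 2 adagio protein 1 contigs of S. superba, CL4965.Contig1 gave 0.58 ± 0.19 (SE, adjusted p = 0.0312) in low light and 0.63 ± 0.19 (SE, adjusted p = 0.0177) in full light, lost in low light without replicate 2 or 3 of young low light or replicate 1 or 3 of mature low light (adjusted p = 0.057 to 0.116) and in full light without replicate 2 of young full light or replicate 3 of mature full light (adjusted p = 0.0695 to 0.0698). CL4965.Contig3 gave -0.56 ± 0.14 (SE, adjusted p = 0.00764) in low light and -0.18 ± 0.14 (SE, adjusted p = 0.309) in full light; its low light call was lost under both other scalings (-0.10 and -0.24, adjusted p = 0.645 and 0.219), and in full light it passed as higher under median-ratio rescaling (0.47, adjusted p = 0.0331). The sum of their cluster was 0.07 in low light (adjusted p = 0.725) and 0.26 in full light (adjusted p = 0.181).

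Pseudo-response regulators are transcriptional repressors of the clock that follow each other through the day. Regulator 1, TOC1 in Arabidopsis, was lower in mature leaves of S. superba (Unigene22127): it had 5.87, 3.06 and 4.47 FPKM in mature low light leaves and 2.68, 5.7 and 5.52 FPKM in mature full light leaves, against 24.9, 25.8 and 23.4 FPKM in young low light leaves and 66, 60.2 and 50.4 FPKM in young full light leaves. The ages did not overlap. It changed by -2.27 ± 0.26 (SE, adjusted p = 5.77e-05) in low light and -3.45 ± 0.26 (SE, adjusted p = 1.7e-06) in full light. Regulator 7 (CL8110.Contig2) fell as well (-1.56 and -1.56). Sums of 2 regulator clusters, each with 3 contigs of which 1 was a member without a call, passed: CL3803 (APRR5) gave -1.06 ± 0.38 (SE, adjusted p = 0.0419) in low light and -1.26 ± 0.38 (SE, adjusted p = 0.0167) in full light, and CL153 (APRR7) gave 1.38 ± 0.51 (SE, adjusted p = 0.047) in low light and 1.28 ± 0.51 (SE, adjusted p = 0.0561) in full light. The APRR5 unigene Unigene39 had 18.7, 18.6 and 22.7 FPKM in mature low light leaves and 5.34, 26 and 26 FPKM in mature full light leaves, against 29.8, 33.4 and 28.1 FPKM in young low light leaves and 121, 406 and 50.4 FPKM in young full light leaves. Young full light leaves spread widely, with replicate 2 far above the others. It fell in full light (-3.04 ± 0.68 SE, adjusted p = 0.0034) and gave -0.58 ± 0.68 (SE, adjusted p = 0.535) in low light. In C. concinna regulators 5 and 9 were higher in mature leaves. Regulator 5 (Unigene6839) had 63.9, 38.1 and 47.2 FPKM in mature low light leaves and 107, 52 and 51.3 FPKM in mature full light leaves, against 10.8, 3.88 and 18.3 FPKM in young low light leaves and 4.91, 16.6 and 17.7 FPKM in young full light leaves. Mature libraries were all above young ones. It changed by 2.26 ± 0.53 (SE, adjusted p = 0.00598) in low light and 2.42 ± 0.53 (SE, adjusted p = 0.00484) in full light. Regulator 9 (Unigene31119) had 167, 109 and 164 FPKM in mature low light leaves and 237, 106 and 130.1 FPKM in mature full light leaves, against 51.7, 30.4 and 57.6 FPKM in young low light leaves and 84.9, 77.3 and 71.3 FPKM in young full light leaves. It too was highest in mature leaves. It changed by 1.66 ± 0.32 (SE, adjusted p = 0.00192) in low light and 0.93 ± 0.32 (SE, adjusted p = 0.049) in full light; the full light call was lost without replicate 1, 2 or 3 of young full light, replicate 1 or 3 of mature full light, replicate 1 or 3 of young low light or replicate 1 or 3 of mature low light (adjusted p = 0.0518 to 0.181).

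An APRR3 contig of C. concinna (CL2713.Contig1) had 31.7, 73 and 241 FPKM in mature low light leaves and 141, 124 and 44.9 FPKM in mature full light leaves, against 12.3, 5.95 and 15.9 FPKM in young low light leaves and 22.3, 19.8 and 3.55 FPKM in young full light leaves. Mature libraries were higher but differed among themselves by several-fold. It changed by 2.85 ± 0.76 (SE, adjusted p = 0.0112) in low light and 2.85 ± 0.76 (SE, adjusted p = 0.0138) in full light; the call was lost in low light without replicate 3 of mature low light (adjusted p = 0.0515) and in full light without replicate 3 of young full light or replicate 1 of mature full light (adjusted p = 0.0508 to 0.0604). The sum over the 4 contigs of that cluster rose by 2.96 ± 0.39 (SE, adjusted p = 8.35e-05) in low light and by 1.86 ± 0.39 (SE, adjusted p = 0.00273) in full light. APRR2 (Unigene26745), a GARP-domain protein outside the clock set in Arabidopsis, had 8.73, 6.8 and 6.53 FPKM in mature low light leaves and 8.02, 9.36 and 8.53 FPKM in mature full light leaves, against 64, 47.3 and 50.9 FPKM in young low light leaves and 56.7, 42.5 and 54.8 FPKM in young full light leaves. It was the 1 regulator-named unigene that fell, and it changed by -2.72 ± 0.22 (SE, adjusted p = 3.36e-06) in low light and -2.43 ± 0.22 (SE, adjusted p = 1.09e-05) in full light.

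EARLY FLOWERING 3 and 4 belong to the evening complex, which represses clock and growth genes at night in Arabidopsis. In C. concinna 5 of 7 members of this name rose in low light and 1 in full light. EARLY FLOWERING 3-like CL3673.Contig2 had 21.9, 17.1 and 19.7 FPKM in mature low light leaves and 16.4, 20.1 and 15.4 FPKM in mature full light leaves, against 1.54, 1.51 and 3.95 FPKM in young low light leaves and 1.35, 2.41 and 3.54 FPKM in young full light leaves. It was under 5 FPKM in young and over 15 FPKM in mature leaves. It changed by 2.69 ± 0.33 (SE, adjusted p = 8e-05) in low light and 2.46 ± 0.33 (SE, adjusted p = 0.000197) in full light. Unigene8173 gave 1.68 ± 0.34 (SE, adjusted p = 0.00265) in low light and 0.60 ± 0.34 (SE, adjusted p = 0.214) in full light and passed in full light under both other scalings. A further EARLY FLOWERING 3-like contig (CL2744.Contig1) gave 2.78 ± 0.67 (SE, adjusted p = 0.00664) in low light and 1.69 ± 0.67 (SE, adjusted p = 0.0765) in full light, and the sum of its cluster 2.39 ± 0.30 (SE, adjusted p = 5.78e-05) in low light and 1.49 ± 0.30 (SE, adjusted p = 0.00217) in full light. The 2 unigenes named PHOTOPERIOD-INDEPENDENT EARLY FLOWERING 1 encode a chromatin remodelling ATPase rather than a clock protein in Arabidopsis. They gave 1.03 ± 0.34 (SE, adjusted p = 0.0335), lost without replicate 1 or 2 of young low light or replicate 1 or 3 of mature low light (adjusted p = 0.0858 to 0.12), and 1.15 ± 0.43 (SE, adjusted p = 0.051) in low light. In S. superba EARLY FLOWERING 4-like (Unigene33903) had 10.1, 5.07 and 10.6 FPKM in mature low light leaves and 13.1, 9.43 and 10.6 FPKM in mature full light leaves, against 55.6, 68.4 and 76 FPKM in young low light leaves and 20.2, 16.2 and 31.6 FPKM in young full light leaves. Young low light leaves were highest and mature leaves lowest. It changed by -2.87 ± 0.29 (SE, adjusted p = 2.52e-05) in low light and -0.94 ± 0.29 (SE, adjusted p = 0.022) in full light; the full light call was lost under median-ratio rescaling (-0.29, adjusted p = 0.487), under quantile normalization (-0.40, adjusted p = 0.314) and without replicate 3 of young full light or replicate 2 or 3 of mature full light (adjusted p = 0.054 to 0.092). EARLY FLOWERING 3 of S. superba (Unigene7517) gave -0.17 ± 0.42 (SE, adjusted p = 0.783) and -0.76 ± 0.42 (SE, adjusted p = 0.163). The plot of clock genes by group shows the order of ages in both species.

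**Figure D3:**
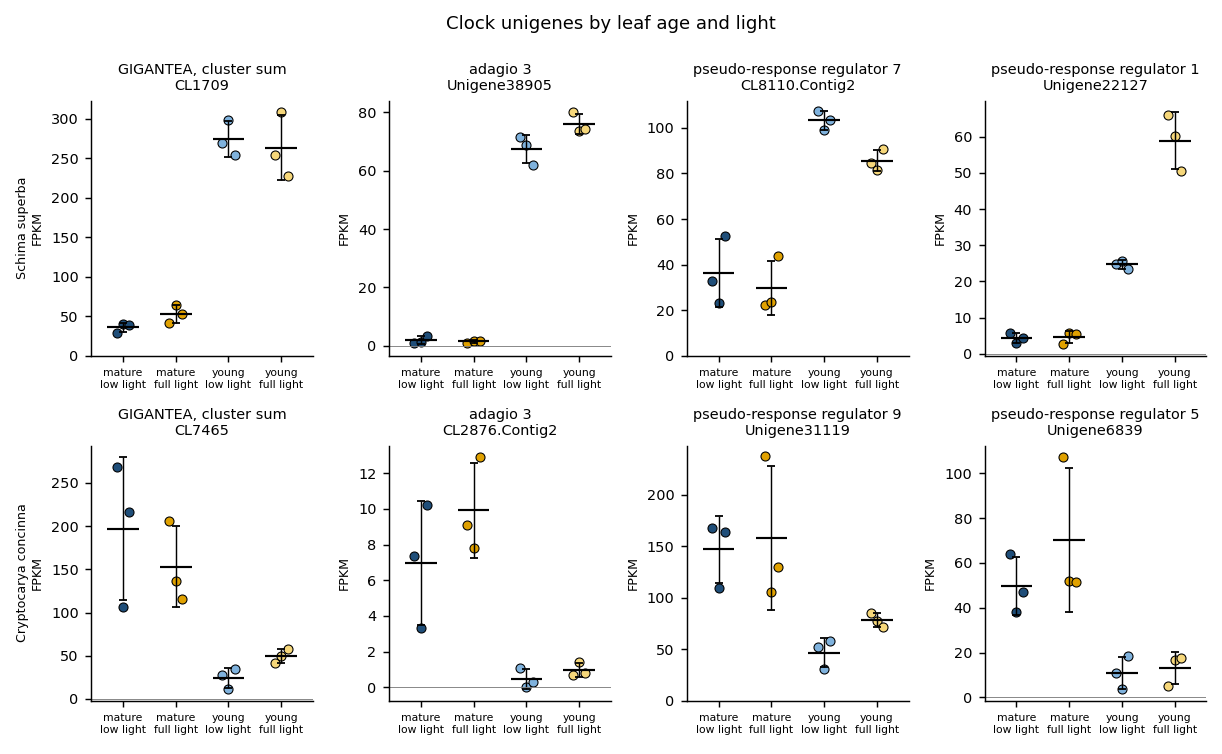
FPKM in each library of the GIGANTEA cluster sum (CL1709), adagio protein 3 and pseudo-response regulators 7 and 1 of S. superba, and of the GIGANTEA cluster sum (CL7465), adagio protein 3 and pseudo-response regulators 9 and 5 of C. concinna, by group, with 3 points per group, the mean as a line and the SD as a whisker. The mature libraries lie below the young ones in every S. superba panel and above them in every C. concinna panel.

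CONSTANS and CONSTANS-like proteins are B-box zinc finger transcription factors, of which CONSTANS links day length to flowering in Arabidopsis and several others act in light signalling. In C. concinna 8 of 13 rose in each light, while 2 fell in low light and 3 in full light. In S. superba 4 of 18 tested rose and 7 fell in low light, and 3 fell and none rose in full light. With median-ratio rescaling 6 rose and 2 fell in full light, and with quantile normalization 5 and 2. Without rescaling, 9.19% of all S. superba unigenes rose and 29.5% fell in low light, and 9.67% and 36.3% in full light. For C. concinna these shares were 20.7% and 17.1% in low light, and 8.19% and 20.2% in full light. CONSTANS-LIKE 6 of S. superba (Unigene1611) had 1.13, 0.25 and 1.88 FPKM in mature low light leaves and 0.58, 0.6 and 0.07 FPKM in mature full light leaves, against 56.2, 80.6 and 95.9 FPKM in young low light leaves and 67.9, 73.3 and 77.6 FPKM in young full light leaves. It stood under 2 FPKM in every mature library. It changed by -5.28 ± 0.31 (SE, adjusted p = 5.37e-07) in low light and -5.73 ± 0.31 (SE, adjusted p = 1.88e-07) in full light. A CONSTANS-LIKE 9 unigene (Unigene17773) had 0.25, 0.23 and 1.73 FPKM in mature low light leaves and 0.64, 0.41 and 0.84 FPKM in mature full light leaves, against 6.28, 14.5 and 10.5 FPKM in young low light leaves and 9.37, 8.27 and 11.1 FPKM in young full light leaves. Mature leaves stayed under 2 FPKM. It changed by -2.76 ± 0.36 (SE, adjusted p = 0.000147) in low light and -2.70 ± 0.36 (SE, adjusted p = 0.000106) in full light. Another contig of that name (CL4840.Contig1) gave -4.05 ± 0.70 (SE, adjusted p = 0.000906) in low light and -1.92 ± 0.70 (SE, adjusted p = 0.0425) in full light, the second lost under both other scalings and without replicate 1 of young full light, replicate 1, 2 or 3 of mature full light, replicate 1, 2 or 3 of young low light or replicate 1 or 3 of mature low light (adjusted p = 0.0516 to 0.12). The sum of its cluster, with 1 contig that is no member, had 1.29, 1.64 and 1.66 FPKM in mature low light leaves and 0.84, 0.92 and 1.54 FPKM in mature full light leaves, against 24.9, 29 and 21.9 FPKM in young low light leaves and 31.1, 37.2 and 32.2 FPKM in young full light leaves and changed by -3.37 ± 0.20 (SE, adjusted p = 3.39e-07) in low light and -4.05 ± 0.20 (SE, adjusted p = 6.3e-08) in full light; the contig itself varied from 1.49 to 24.9 FPKM among young full light libraries. CONSTANS-LIKE 2 (CL2640.Contig2) had 24.3, 8.26 and 12 FPKM in mature low light leaves and 9.98, 10.2 and 10.2 FPKM in mature full light leaves, against 6.85, 4.52 and 4.18 FPKM in young low light leaves and 4.65, 5.88 and 5.83 FPKM in young full light leaves. Mature libraries were above young ones, and mature low light replicate 1 was highest. It gave 1.26 ± 0.32 (SE, adjusted p = 0.00935) in low light and 0.79 ± 0.32 (SE, adjusted p = 0.0628) in full light, and so passed in low light; in full light it passed under both other scalings (1.39 and 1.41, adjusted p = 0.00331 and 0.0026). The other contig of the cluster, CL2640.Contig1, gave 1.23 ± 0.36 (SE, adjusted p = 0.0181) in low light, lost without replicate 3 of young low light (adjusted p = 0.0701), and 0.74 ± 0.36 (SE, adjusted p = 0.115) in full light, where it passed under both other scalings (1.27 and 1.39, adjusted p = 0.0143 and 0.00817).

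The most abundant member of the family in S. superba, CONSTANS-LIKE 4 (Unigene3551), had 222, 169.9 and 161 FPKM in mature low light leaves and 144, 138 and 159 FPKM in mature full light leaves, against 133, 145 and 124 FPKM in young low light leaves and 151, 154 and 146 FPKM in young full light leaves. Mature low light leaves were above young low light leaves, and the full light groups overlapped. It gave 0.45 ± 0.17 (SE, adjusted p = 0.0547) and -0.04 ± 0.17 (SE, adjusted p = 0.879), neither past the threshold. Under median-ratio rescaling it passed as higher in both lights (0.91, adjusted p = 0.00202 in low light and 0.64, adjusted p = 0.0126 in full light), so its full light sign turned. In C. concinna CONSTANS-LIKE 10 (CL2717.Contig1) had 101, 75.7 and 91 FPKM in mature low light leaves and 104, 75.2 and 60.4 FPKM in mature full light leaves, against 11.5, 6.1 and 10.2 FPKM in young low light leaves and 14.2, 25.3 and 18.4 FPKM in young full light leaves. All mature libraries were above 60 FPKM and all young ones below 26 FPKM. It changed by 3.17 ± 0.29 (SE, adjusted p = 9.91e-06) in low light and 1.99 ± 0.29 (SE, adjusted p = 0.000366) in full light. CONSTANS-LIKE 13 (CL7259.Contig1) had 51.7, 67 and 65.5 FPKM in mature low light leaves and 58.8, 66.8 and 46.2 FPKM in mature full light leaves, against 11.5, 8.59 and 15.3 FPKM in young low light leaves and 15.8, 16.1 and 15.8 FPKM in young full light leaves. Again the ages were apart. It changed by 2.31 ± 0.24 (SE, adjusted p = 2.24e-05) in low light and 1.77 ± 0.24 (SE, adjusted p = 0.000203) in full light. CONSTANS-LIKE 14 (Unigene39319) changed by 2.19 ± 0.27 (SE, adjusted p = 8.86e-05) in low light and 1.84 ± 0.27 (SE, adjusted p = 0.00038) in full light, CONSTANS-LIKE 7 (Unigene27180) by 2.45 ± 0.33 (SE, adjusted p = 0.000147) in low light and 2.73 ± 0.33 (SE, adjusted p = 8.56e-05) in full light, and a second CONSTANS-LIKE 14 (Unigene15782) by 1.80 ± 0.39 (SE, adjusted p = 0.00337) in low light and 2.41 ± 0.39 (SE, adjusted p = 0.000623) in full light.

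CONSTANS-LIKE 5 ran against its family in C. concinna. One unigene (Unigene3111) had 37, 37.7 and 25.4 FPKM in mature low light leaves and 41, 32.6 and 23.1 FPKM in mature full light leaves, against 103, 78.5 and 79.4 FPKM in young low light leaves and 109, 99.9 and 93.4 FPKM in young full light leaves. Young leaves were higher throughout. It changed by -1.36 ± 0.25 (SE, adjusted p = 0.00123) in low light and -1.65 ± 0.25 (SE, adjusted p = 0.000418) in full light. Another (Unigene36255), the most abundant of the family there, had 131, 239.7 and 192 FPKM in mature low light leaves and 159, 162 and 239 FPKM in mature full light leaves, against 289.5, 235 and 279 FPKM in young low light leaves and 154, 206 and 214 FPKM in young full light leaves. Its ages overlapped, and it gave -0.55 ± 0.27 (SE, adjusted p = 0.118) and -0.05 ± 0.27 (SE, adjusted p = 0.912). A CONSTANS-LIKE 10 unigene apart from the contig above (Unigene2517) also fell, with -0.97 ± 0.31 (SE, adjusted p = 0.0284) in low light and -1.72 ± 0.31 (SE, adjusted p = 0.00143) in full light, the first lost without replicate 2 or 3 of young low light or replicate 1 or 2 of mature low light (adjusted p = 0.0583 to 0.089). CONSTANS-LIKE 1 (Unigene18664), at under 1 FPKM in young leaves, changed by 2.39 ± 0.53 (SE, adjusted p = 0.00438) in low light and 1.72 ± 0.53 (SE, adjusted p = 0.0298) in full light; the full light call was lost without replicate 1 or 3 of young full light or replicate 2 or 3 of mature full light (adjusted p = 0.0619 to 0.0926). The names of 2 S. superba members belong to other families: suppressor of overexpression of CONSTANS 1 (Unigene21504) is a MADS-box flowering factor and CONSTANS interacting protein 2b (Unigene31891) a subunit of the nuclear factor Y complex. In low light they changed by -1.78 ± 0.49 (SE, adjusted p = 0.0137) and 0.75 ± 0.15 (SE, adjusted p = 0.00271), and in full light they gave -0.10 and -0.12 without a call. The low light call of Unigene21504 was lost under both other scalings (-1.37 and -1.36, adjusted p = 0.0657 and 0.0617), and Unigene31891 passed as higher in full light under median-ratio rescaling (0.54, adjusted p = 0.0256).

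Shade moved few members. In young leaves of S. superba 3 members were higher and 3 lower in low than in full light, of 84; within mature leaves, and at either age of C. concinna, none passed. The 6 were higher CONSTANS-LIKE 16, EARLY FLOWERING 4-like and a CONSTANS-LIKE 9, and lower pseudo-response regulator 1, a contig of GIGANTEA and phytochrome-associated protein 2. Of all unigenes tested there, 2.32% were higher and 3.02% lower, and of the members 3.57% each, near the share of all unigenes. The members' median was 0.01, and that of all unigenes -0.07. The count was 3 without any 1 of the 3 young full light libraries and 2 without young low light replicate 2 or 3. Those last 2 libraries were closer to each other than any other replicate pair of the species (SD of log2 ratios 0.368, against 0.765 to 1.37), and averaged as 1 library they left 2 calls. UVR8-like CL470.Contig2, at 0.87 ± 0.25 (SE, adjusted p = 0.0727), passed as higher under both other scalings (0.93 and 0.99, adjusted p = 0.039 and 0.0257). Sums of UVR8 clusters also passed as higher, with 0.97 ± 0.26 (SE, adjusted p = 0.0444) for CL470 and 0.79 ± 0.21 (SE, adjusted p = 0.0479) for CL419. Summed mesophyll markers, at 33200 to 47450 FPKM in young low light and 12740 to 19130 FPKM in young full light leaves, moved with light too (13 of 37 higher, none lower), and their part was not tested.

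CONSTANS-LIKE 16 (Unigene8407) had 8.26, 15.2 and 10.1 FPKM in young low light leaves, against 0.28, 2.73 and 0.45 FPKM in young full light leaves. The shaded leaves were clearly above the sunlit ones. It rose by 2.64 ± 0.41 (SE, adjusted p = 0.00774); in mature leaves it stood at 1.17, 0.55 and 0.28 FPKM in mature low light leaves, against 0.4, 0.35 and 0.52 FPKM in mature full light leaves, without a call. EARLY FLOWERING 4-like (Unigene33903) had 55.6, 68.4 and 76 FPKM in young low light leaves, against 20.2, 16.2 and 31.6 FPKM in young full light leaves. Low light libraries were all higher. It rose by 1.56 ± 0.29 (SE, adjusted p = 0.0164), a call lost without replicate 1 or 2 of young full light or replicate 2 or 3 of young low light (adjusted p = 0.0515 to 0.0739). Pseudo-response regulator 1 (Unigene22127) had 24.9, 25.8 and 23.4 FPKM in young low light leaves, against 66, 60.2 and 50.4 FPKM in young full light leaves. Low light libraries were tight and all lower. It changed by -1.21 ± 0.26 (SE, adjusted p = 0.0261), a call lost without replicate 1, 2 or 3 of young full light or replicate 1, 2 or 3 of young low light (adjusted p = 0.0553 to 0.0942). Phytochrome-associated protein 2 (Unigene14016) had 54.5, 49.2 and 62.4 FPKM in young low light leaves, against 117, 74.6 and 110.5 FPKM in young full light leaves. Here too the groups did not overlap. It changed by -0.83 ± 0.20 (SE, adjusted p = 0.0392), a call lost under median-ratio rescaling (-0.75, adjusted p = 0.098) and without replicate 1 or 3 of young full light, replicate 1, 2 or 3 of young low light or replicate 1 of mature low light (adjusted p = 0.0525 to 0.155). CONSTANS-LIKE 9 (Unigene24757), below the level set for naming and given because it completes the 6, had 4.35, 4.63 and 5.34 FPKM in young low light leaves, against 1.7, 0.34 and 1.69 FPKM in young full light leaves. It was low but apart. It rose by 1.43 ± 0.37 (SE, adjusted p = 0.0489), a call lost under median-ratio rescaling (adjusted p = 0.0784), under quantile normalization (adjusted p = 0.0646) and without replicate 1, 2 or 3 of young full light, replicate 3 of mature full light, replicate 1, 2 or 3 of young low light or replicate 1, 2 or 3 of mature low light (adjusted p = 0.0616 to 0.143).

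**Figure D4:**
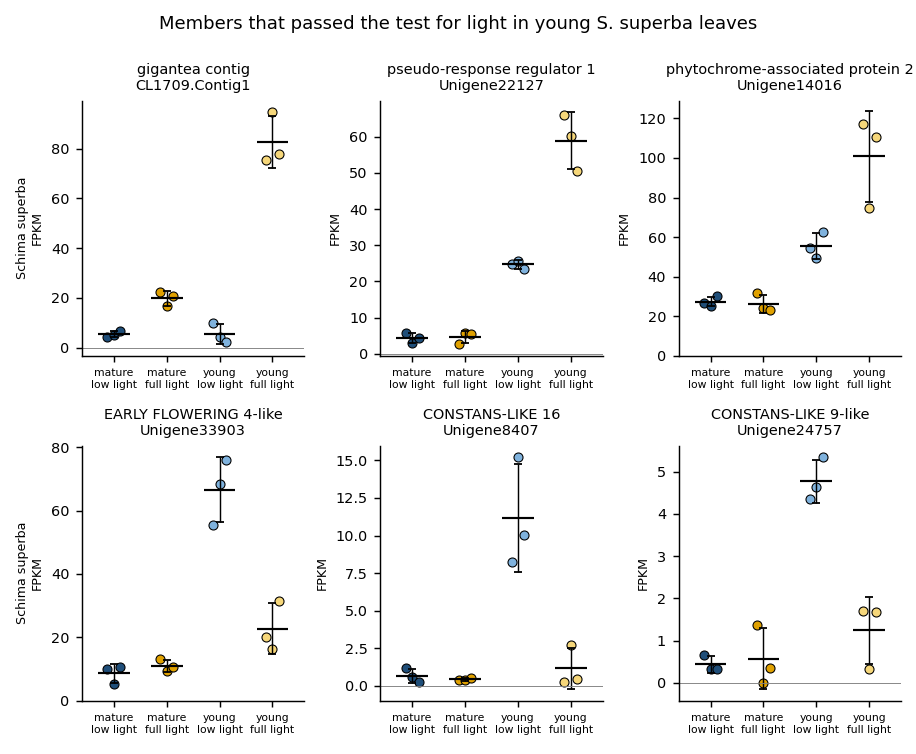
FPKM of the 6 members called between low and full light in young leaves of S. superba, in each library of the 4 groups, with 3 points per group, the mean as a line and the SD as a whisker. In young leaves the low and full light points do not overlap in any of the 6 panels.

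The GIGANTEA contig is a case of its own. CL1709.Contig1 had 9.78, 4.14 and 2.07 FPKM in young low light leaves, against 75.6, 94.6 and 78.1 FPKM in young full light leaves, and 4.43, 4.95 and 6.65 FPKM in mature low light leaves, against 22.3, 16.5 and 20.5 FPKM in mature full light leaves. Low light libraries were lower at both ages without overlap. It changed by -3.91 ± 0.36 (SE, adjusted p = 0.00126) in young leaves and gave -1.72 ± 0.36 (SE, adjusted p = 0.0557) in mature leaves. The sum of the 7 contigs of the cluster did not follow it and gave 0.07 ± 0.20 (SE, adjusted p = 0.885) in young leaves and -0.53 ± 0.20 (SE, adjusted p = 0.238) in mature leaves. The share of this contig in the cluster's FPKM was 0.814% to 3.63% in young low light libraries, against 29.8% to 34.3% in young full light libraries, and 12.5% to 17.3% in mature low light, against 25.9% to 53.7% in mature full light libraries. The other contigs made up more of the cluster's FPKM in low light. CL1709.Contig6 had 74.7, 94.5 and 78.5 FPKM in young low light leaves, against 46.1, 57.5 and 41.4 FPKM in young full light leaves, with 0.77 ± 0.24 (SE, adjusted p = 0.0956). CL1709.Contig2 had 41.2, 47.6 and 39.4 FPKM in young low light leaves, against 25.7, 38.2 and 23 FPKM in young full light leaves, with 0.57 ± 0.30 (SE, adjusted p = 0.291). Neither of these passed, though CL1709.Contig6 passed as higher under quantile normalization (0.84, adjusted p = 0.042). Whether the shift lies between transcript forms of GIGANTEA, between gene copies or in how reads were shared among contigs was not tested. The other GIGANTEA cluster, CL2783, gave -0.17 (adjusted p = 0.701) in young leaves.

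**Figure D5:**
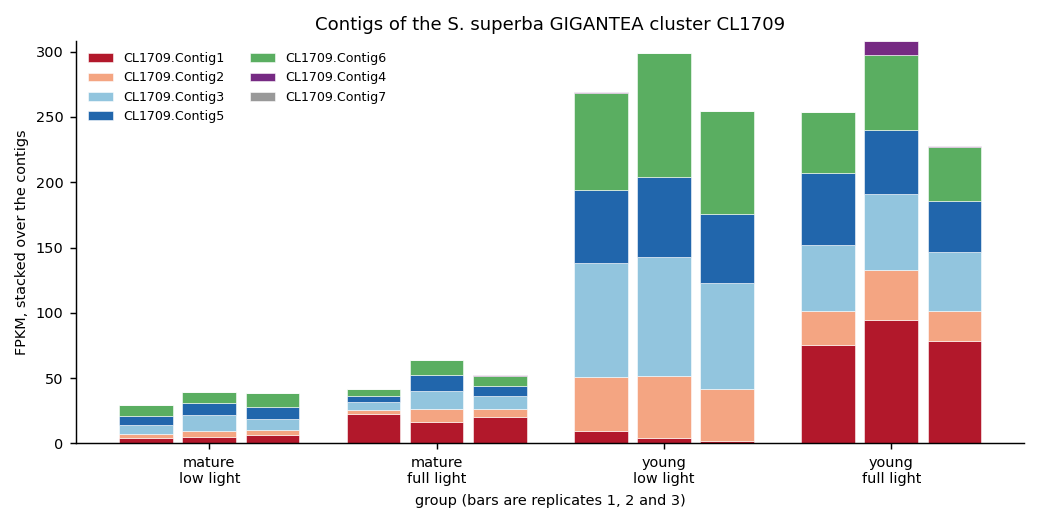
FPKM of the 7 contigs of the S. superba GIGANTEA cluster CL1709, stacked in 1 bar per library (vertical axis) and ordered by group (mature low light, mature full light, young low light, young full light, each with replicates 1, 2 and 3). The segment of CL1709.Contig1 at the foot of the bars is thin in young low light, at 2.07 to 9.78 FPKM, and thick in young full light, at 75.6 to 94.6 FPKM, while the bars reach similar heights.

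In mature leaves of S. superba limma called none of 84 members, with 14 at an unadjusted p under 0.05, where 0.6% of all unigenes were higher and 0.255% lower. Median-ratio rescaling called 1, the GIGANTEA contig CL1709.Contig1 (-1.86, adjusted p = 0.0346). A few members gave differences of more than 1 on the log2 scale without a call: suppressor of overexpression of CONSTANS 1 (Unigene21504) had 1, 10.7 and 2.13 FPKM in mature low light leaves, against 16.8, 15.8 and 18.5 FPKM in mature full light leaves, and gave -2.11 ± 0.49 (SE, adjusted p = 0.0762). Low light replicate 2 lay nearest to the full light libraries. Phytochrome kinase substrate 1 (Unigene3125) had 11.1, 15 and 5.55 FPKM in mature low light leaves, against 4.73, 2.44 and 2.71 FPKM in mature full light leaves, and gave 1.37 ± 0.34 (SE, adjusted p = 0.0942). Its low light libraries were all higher. The count was 1 without young low light replicate 1 or 3, mature low light replicate 2 or mature low light replicate 3, and 0 otherwise.

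In C. concinna limma called none of 67 members for light in young leaves, with 17 at an unadjusted p under 0.05, and none in mature leaves, with 7. Of all unigenes, 0.00566% were higher and 0.0245% lower in young leaves, and 0.0264% and 0.0302% in mature leaves, so hardly any unigene of the species passed. In young leaves 52 of 67 members had a negative change, with a median of -0.52 against -0.34 for all unigenes; under median-ratio rescaling 40 were negative, with a median of -0.13 against -0.05. HY5 (Unigene17288) had 22.3, 14.4 and 37 FPKM in young low light leaves, against 64.4, 54.3 and 50.3 FPKM in young full light leaves, and 4.75, 3.23 and 0.79 FPKM in mature low light leaves, against 11.2, 7.38 and 4.31 FPKM in mature full light leaves. Low light libraries were all lower in young leaves, and the mature groups overlapped. It gave -1.26 ± 0.45 (SE, adjusted p = 0.205) in young and -1.21 ± 0.45 (SE, adjusted p = 0.617) in mature leaves. Phototropin 2 (CL1109.Contig1) gave -1.35 ± 0.40 (SE, adjusted p = 0.171) in young leaves, and a UVR8-like unigene (Unigene4437) -1.40 ± 0.32 (SE, adjusted p = 0.139), each with low light libraries below full light ones. Adagio protein 1 (Unigene4573), given because it was the 1 member that passed under other scalings, had 7.34, 4.23 and 4 FPKM in mature low light leaves, against 18.9, 16.4 and 11.9 FPKM in mature full light leaves. Its low light libraries were all lower. It gave -1.45 ± 0.29 (SE, adjusted p = 0.144), and passed under median-ratio rescaling (adjusted p = 0.0477) and quantile normalization (adjusted p = 0.0336).

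Whether shade acted differently in mature and young leaves was tested as the light effect in mature leaves minus that in young leaves. In S. superba 2 of 84 members were lower and none higher, against 0.506% and 1.11% of all unigenes, whose median was 0.17, or 0.03 after median-ratio rescaling. UVR8-like CL470.Contig2 had 8.74, 4.3 and 6.35 FPKM in mature low light leaves, against 9.08, 11.6 and 14.2 FPKM in mature full light leaves, and 30.4, 24.1 and 24.3 FPKM in young low light leaves, against 14.7, 11 and 16.4 FPKM in young full light leaves. It was lower in low light in mature leaves and higher in low light in young leaves, without overlap at either age. The difference of the light effects was -1.65 ± 0.36 (SE, adjusted p = 0.048), lost in the sum of its cluster (-1.54, adjusted p = 0.0522) and without replicate 1, 2 or 3 of young full light, replicate 2 or 3 of mature full light, replicate 1, 2 or 3 of young low light or replicate 2 or 3 of mature low light (adjusted p = 0.0671 to 0.116). EARLY FLOWERING 4-like (Unigene33903), higher in low light in young leaves, had 10.1, 5.07 and 10.6 FPKM in mature low light leaves, against 13.1, 9.43 and 10.6 FPKM in mature full light leaves. These mature groups overlapped. The difference was -1.93 ± 0.42 (SE, adjusted p = 0.0467), lost without replicate 1 or 2 of young full light, replicate 1, 2 or 3 of mature full light, replicate 1, 2 or 3 of young low light or replicate 1, 2 or 3 of mature low light (adjusted p = 0.0537 to 0.128). Quantile normalization called 2 more, CL1709.Contig1 as higher (adjusted p = 0.0483) and CONSTANS-LIKE 16 (Unigene8407) as lower (-2.61, adjusted p = 0.0476). In C. concinna limma called none of 67, with 11 at an unadjusted p under 0.05, against 0.00377% higher and 0.00189% lower of all unigenes; 55 members were positive, with a median of 0.63 against 0.39 for all unigenes, and 40 were positive under median-ratio rescaling, with medians of 0.13 and 0.02.

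Other genes of light signalling and the clock, taken by name from a list that excluded the members, gave 90 unigenes in S. superba (87 tested) and 80 in C. concinna (77 tested). The list held FAR1-type factors, B-box and salt tolerance proteins, cyclic dof factors, REVEILLE proteins, NPH3 and root phototropism proteins, DET1, COP9 signalosome subunits, heme oxygenases and casein kinase II subunits, among others. Unlike the calls of members, calls on this list were not checked under other scalings or without single libraries. In mature leaves of S. superba 11 of the 87 tested rose and 21 fell in low light, against 9.19% and 29.5% of all unigenes. Under full light 10 rose and 36 fell, against 9.67% and 36.3% of all unigenes. In C. concinna 16 of the 77 tested rose and 6 fell in low light, against 20.7% and 17.1% of all unigenes. Under full light 1 rose and 15 fell, against 8.19% and 20.2% of all unigenes. Cyclic dof factors repress CONSTANS and are removed by adagio protein 3 with GIGANTEA in Arabidopsis. Cyclic dof factor 3-like (CL4931.Contig1) of S. superba had 38.6, 45.7 and 24.3 FPKM in mature low light leaves and 14.3, 27.9 and 38 FPKM in mature full light leaves, against 0.7, 0.74 and 0.66 FPKM in young low light leaves and 0.87, 0.77 and 1.1 FPKM in young full light leaves. Mature leaves were many-fold higher. It changed by 4.41 ± 0.33 (SE, adjusted p = 2.71e-06) in low light and 3.76 ± 0.33 (SE, adjusted p = 4.59e-06) in full light. Salt tolerance protein, a B-box factor of the clock and light pathways, went opposite ways by name: Unigene29992 of S. superba had 55.9, 53.1 and 48.9 FPKM in mature low light leaves and 49.3, 47.7 and 49.8 FPKM in mature full light leaves, against 6.88, 4.74 and 4.72 FPKM in young low light leaves and 4.45, 4.29 and 5.45 FPKM in young full light leaves, and Unigene4087 of C. concinna had 5.37, 4.34 and 1.88 FPKM in mature low light leaves and 2.75, 1.69 and 0.82 FPKM in mature full light leaves, against 26.3, 44.6 and 32.6 FPKM in young low light leaves and 24.9, 35.4 and 25.4 FPKM in young full light leaves. The first was higher and the second lower in every mature library. They changed by 3.07 ± 0.17 (SE, adjusted p = 3.61e-07) in low light and 3.13 ± 0.17 (SE, adjusted p = 1.91e-07) in full light, and by -2.91 ± 0.36 (SE, adjusted p = 8.45e-05) in low light and -3.47 ± 0.36 (SE, adjusted p = 3.09e-05) in full light. NPH3, the partner of phototropin 1 in phototropism, fell in S. superba (Unigene5682), with -2.68 ± 0.27 (SE, adjusted p = 2.31e-05) in low light and -2.60 ± 0.27 (SE, adjusted p = 1.67e-05) in full light. Root phototropism protein 2 fell in C. concinna (Unigene29196), with -1.36 ± 0.29 (SE, adjusted p = 0.00312) in low light and -2.21 ± 0.29 (SE, adjusted p = 0.000146) in full light.

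For light, 2 of the 87 in S. superba were higher and 2 lower in young leaves and 1 was higher in mature leaves. Of all unigenes of S. superba, 2.32% were higher and 3.02% lower in young leaves, and 0.6% and 0.255% in mature leaves. In C. concinna limma called none of 77, with 18 at an unadjusted p under 0.05 in young and 3 in mature leaves. Its shares of all unigenes were 0.00566% and 0.0245% in young leaves, and 0.0264% and 0.0302% in mature leaves. Cyclic dof factor 3-like (Unigene18447) had 7.74, 5.83 and 5.6 FPKM in young low light leaves, against 11.8, 19.1 and 15.8 FPKM in young full light leaves. Low light leaves were lower. It changed by -1.15 ± 0.26 (SE, adjusted p = 0.0304). Cyclic dof factor 2-like (CL4709.Contig1) had 15.1, 7.97 and 14.9 FPKM in mature low light leaves, against 3.52, 2.82 and 1.25 FPKM in mature full light leaves. Low light leaves were higher. It rose by 1.96 ± 0.32 (SE, adjusted p = 0.0227). Neither of these dof factor calls was checked under other scalings or without single libraries.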

How the data were processed

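Leaf RNA-seq of 24 libraries was analysed, 3 in each of 4 groups per species. The values are FPKM per unigene and library, as deposited by the authors, per the file headers. RSEM 1.2.12 is named in the submitters' processing notes; the assembler, the aligner and the read filters are not given in the sources used here. Per the labels' protocols, RNA came from a Sangon spin column kit in S. superba and a Magen HiPure kit in C. concinna, so species and kit cannot be told apart. The best hit names and KEGG terms are those of the deposited tables, and no unigene sequence was used here.

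From there, log2(FPKM + 1) was fitted per species by limma 3.58.1 in R 4.3.3, with 1 mean per group, all 12 libraries and an intensity trend in the variance. Unigenes with at least 1 FPKM in at least 3 of 12 libraries were tested (50970 in S. superba, 53005 in C. concinna), and p-values were Benjamini-Hochberg adjusted over all of them. Tables and plots were made with Python 3.11.15, matplotlib 3.10.9, numpy 2.4.6 and pandas 2.3.3. Absolute depth is unknown, so no counting intervals are given.

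The members and lists were chosen with earlier results of these data known. Named were, by rule, the member with the highest mean FPKM per species and family, up to 10 called members per direction and comparison with the largest change and at least 5 FPKM in the higher group, and the gigantea, HY5, LHY, COP1 and UVR8 members with a mean of at least 5 FPKM. Named outside it, after their values were seen, were the phototropin 1 contigs CL4896.Contig2 and CL4896.Contig3, CL1287.Contig3, CL1287.Contig4, Unigene34662, Unigene27944, Unigene7517, CL8110.Contig2, Unigene37869, Unigene21504, Unigene31891, Unigene24757, Unigene28801, CL1709.Contig4, CL419.Contig8, CL470.Contig1 and the adagio protein 1 contigs of S. superba, Unigene38540, Unigene4373, Unigene4573, Unigene21784, Unigene3233 and CL5177.Contig2 of C. concinna, and all genes of the list of other light signalling and clock genes. List words were matched to hit descriptions, LUX as a whole word; the lists were that one and the markers of mesophyll, vascular tissue, trichomes with epidermis and guard cells, dividing cells and senescence.

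In S. superba, young low light replicates 2 and 3 differed by less than any other pair of replicates (SD of log2 ratios 0.368, against 0.765 to 1.37); whether they are separate plants is unknown, and both were kept. Alternatives were a pseudocount of 0.1, no filter, the replicate number as a block, quantile normalization, median-ratio rescaling, only the groups compared, sums over clusters, leaving out each of 12 libraries, leaving out both low light libraries numbered 1, and averaging those replicates 2 and 3. They were not followed for the genes of the lists.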

Additional observations from a re-analysis of the deposited data

Results flagged for a closer look

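In S. superba the light effect differed between mature and young leaves for 2 members by limma's test of the difference itself. For UVR8-like CL470.Contig2 the light effect in mature leaves minus that in young leaves was -1.65 on the log2 scale, and for EARLY FLOWERING 4-like Unigene33903 it was -1.93. CL470.Contig2 was lower in low light in mature leaves and higher in low light in young leaves, in all 3 libraries of each group, and Unigene33903 was higher in low light in all 3 young libraries while its mature groups overlapped. Both calls stood near the threshold (limma, adjusted p = 0.048 and 0.0467), and leaving out 1 library ended the first in 10 of 12 cases (adjusted p = 0.0671 to 0.116) and the second in 11 of 12 (adjusted p = 0.0537 to 0.128).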

How the results depend on the processing

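The counts of members changed by leaf age stayed within 1.5 times the reported count under every alternative run. Leaving out 1 library gave 40 to 51 calls in low light and 36 to 46 in full light in S. superba (47 and 45 with all libraries), and 31 to 39 and 23 to 33 in C. concinna (36 and 29). The light counts were small and moved more. In young leaves of S. superba the count of 6 was 3 with a pseudocount of 0.1, 2 with young low light replicates 2 and 3 averaged, and 2 to 8 without 1 library. In mature leaves of S. superba the count of 0 was 1 under median-ratio rescaling and 0 to 1 without 1 library. The count of 2 for light by age in S. superba was 0 with a pseudocount of 0.1, 0 with no filter, 4 under quantile normalization, 1 with cluster sums, 1 without both low light libraries numbered 1, 0 with replicates 2 and 3 averaged, and 0 to 1 without 1 library. In mature leaves of C. concinna the count of 0 was 1 under median-ratio rescaling and 1 under quantile normalization; no light call arose in that species without 1 library. The causes were not tested.

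Of 124 called results of named members, 97 kept their direction and call under all alternatives, 26 lost the call under at least 1, and 1 turned its sign: CL1709.Contig1 for light in young leaves of S. superba, which gave 0.066 (adjusted p = 0.885) when its cluster was summed with the other contigs. Replicate numbers are shared between groups, but no label says that they pair libraries, and the deviations of same-numbered libraries did not correlate above 0.1 in every pair of any comparison (0.324, 0.104 and 0.0999 for leaf age in low light in S. superba); in none did every library correlate best with its own number. With the replicate number as a block, the S. superba counts were 5 and 0 for light in young and mature leaves, 48 and 45 for leaf age in low and full light and 0 for light by age, and the C. concinna counts were 0 and 0, 38 and 32, and 0. A setting with only the groups compared ended 7 named calls. Depth limits what low members can show, since many stood under 5 FPKM and the log2(FPKM + 1) scale flattens them.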
